A study of Mus musculus with 12 samples.

Results

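Two-pore potassium channels carry the background, or leak, potassium current that sets the resting membrane potential of a cell. Each subunit has a pair of pore loops, and a dimer of subunits forms 1 channel. The genes described here are Kcnk1, Kcnk2, Kcnk3, Kcnk4, Kcnk5, Kcnk6, Kcnk10, Kcnk12, Kcnk13 and Kcnk18. They were chosen by symbol, with earlier results of these data known. All 10 were found, 1 row each, among the 51341 rows of the table. GENCODE M21 lists 14 genes of the family in the mouse, and the other 4 (Kcnk7, Kcnk9, Kcnk15 and Kcnk16) were used for comparison.

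Trigeminal ganglia hold the cell bodies of the sensory neurons of the face and the meninges, with their satellite glia and Schwann cells. In these neurons a leak potassium current opposes depolarization, and Kcnk18, which encodes TRESK, is known for its high level in sensory ganglia and for variants studied in familial migraine. RNA was sequenced from the ganglia of 12 CD1 mice, an outbred stock: 6 labelled as responders and 6 as nonresponders to the neuropeptide PACAP, with 3 males and 3 females in each. The labels give no genotype beyond the strain, no age, no dose or time of PACAP, and no account of how the response was scored. The title of the series names light aversion as the response and an inherited difference between mice as its subject.

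Kcnk1 was the most abundant of the genes in every mouse, followed by Kcnk2 and Kcnk18. None of the 9 that passed the filter on low values differed between responders and nonresponders past the test over all genes. Kcnk5 was lower in all 6 responders than in any nonresponder, and Kcnk12 was higher in all 6, but neither reached an adjusted p of 0.05. Kcnk18 had a log2 fold change close to 0, and its level moved from mouse to mouse with that of the sensory neuron markers.

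The sequences that encode the pore show what the genes share and how they differ. They are taken from the coding part of the longest GENCODE M21 coding transcript of each gene (GRCm38), read 5′ to 3′ on the strand of the gene. The capitals mark the 15 bases that encode the selectivity filter signature, found by translating the coding sequence and searching for threonine, any residue, glycine, then tyrosine, phenylalanine or leucine, then glycine. Every one of the 10 genes held exactly 2 matches, 1 for each pore loop. Kcnk18 is shown with both, to show the pair of loops, and the other genes whose values are described most closely with the first only.
Kcnk18 first pore: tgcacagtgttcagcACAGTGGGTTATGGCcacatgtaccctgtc
Kcnk18 second pore: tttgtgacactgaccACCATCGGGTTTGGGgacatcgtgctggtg
Kcnk1 first pore: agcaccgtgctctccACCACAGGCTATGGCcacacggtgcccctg
Kcnk2 first pore: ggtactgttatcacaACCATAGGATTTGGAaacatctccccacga
Kcnk5 first pore: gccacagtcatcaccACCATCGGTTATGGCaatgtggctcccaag
Kcnk12 first pore: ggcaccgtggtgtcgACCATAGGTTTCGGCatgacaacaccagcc
Kcnk13 first pore: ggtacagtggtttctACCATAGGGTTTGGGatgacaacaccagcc

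The first pore window crossed an exon junction in all 10 genes, and in each the junction fell after the capital base 7, inside the codon of the first glycine of the signature. In Kcnk18 it joined exon 2, ending at base 59225539 of chromosome 19, to exon 3, starting at base 59234810. The second pore window of Kcnk18 lay whole in exon 3, at chr19:59235412-59235456, plus strand. Second windows crossed a junction in 4 of the 10 genes. Kcnk12 and Kcnk13, which encode the related THIK subunits, differed at 7 of the 45 bases of the first window, while Kcnk2 and Kcnk18 differed at 20. Across whole transcripts the closest members were Kcnk2 and Kcnk10, 71.4% identical over 916 bases, and Kcnk12 and Kcnk13, 71.0% over 889. No other gene matched Kcnk5, Kcnk10, Kcnk12, Kcnk13 or Kcnk18 at 90% or more over 100 bases, so that the reads of these genes had no near-identical copy to be split with.

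The values of the other members are less certain for that reason. Kcnk4 shares 572 identical bases with Catsperz, which overlaps it on the same strand. A stretch of Kcnk4 matched 320 genes and one of Kcnk6 matched 306, each by 90% or more. Kcnk1, Kcnk2 and Kcnk3 overlap Gm45875, A430027H14Rik and Gm9899 on the opposite strand, with matches of 185, 277 and 230 bases, and no source used here says whether the counting used strand.

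The values are on the FPKM scale, which divides fragments by gene length and by library depth, so that levels can be compared between genes. Totals per mouse ranged from 286388 to 358590 FPKM, and the depth in reads is unknown. Of 16 sensory neuron markers, 15 had a median of at least 1 FPKM and 0 were listed at 0 in any mouse. Responder 1 and nonresponder 4 stood apart from the rest, at 69.7 on the second and 72.7 on the first principal component of all tested genes. These mice also had the lowest summed levels of the sensory neuron markers, 3513 and 3971 FPKM, where the other 10 ranged from 4575 to 7190. Responder 1 had 77971 FPKM over 10 pituitary markers, against 27.3 to 6860 in the other mice. Nonresponder 4 had the highest sums of neutrophil markers, 3804 FPKM against 7.26 to 750 in the other mice, and of skeletal muscle markers, 1667 against 8.86 to 1429. The part of these transcripts in its values was not tested. Each sample's description starts with a number, 1 of 4 in responders and 1 of 3 in nonresponders. No number occurred in both groups, so that its meaning, which no label gives, and the response cannot be told apart.

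The order of the levels was led by Kcnk1, with a median of 50.5 FPKM over 12 mice, which ranked 1006 among the 14203 tested genes. Kcnk1 was above Kcnk2 in 12 of 12 mice, with a median ratio of 4.73. Kcnk2 (median 11.0 FPKM) and Kcnk18 (9.01) were less clearly ordered, Kcnk2 being the higher in 9 of 12 mice. Kcnk18 was above Kcnk3 in 12 of 12, with a median ratio of 1.88. Kcnk3 (4.66), Kcnk5 (4.23), Kcnk12 (3.39), Kcnk13 (2.77) and Kcnk4 (2.30) followed with neighbours that changed order between mice, in 7, 8, 9 and 9 of 12 mice with the first of each pair the higher. Kcnk4 was above Kcnk10 (1.75) in 11 of 12 mice and Kcnk10 above Kcnk6 (0.505) in 11 of 12.

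**Figure D1:**
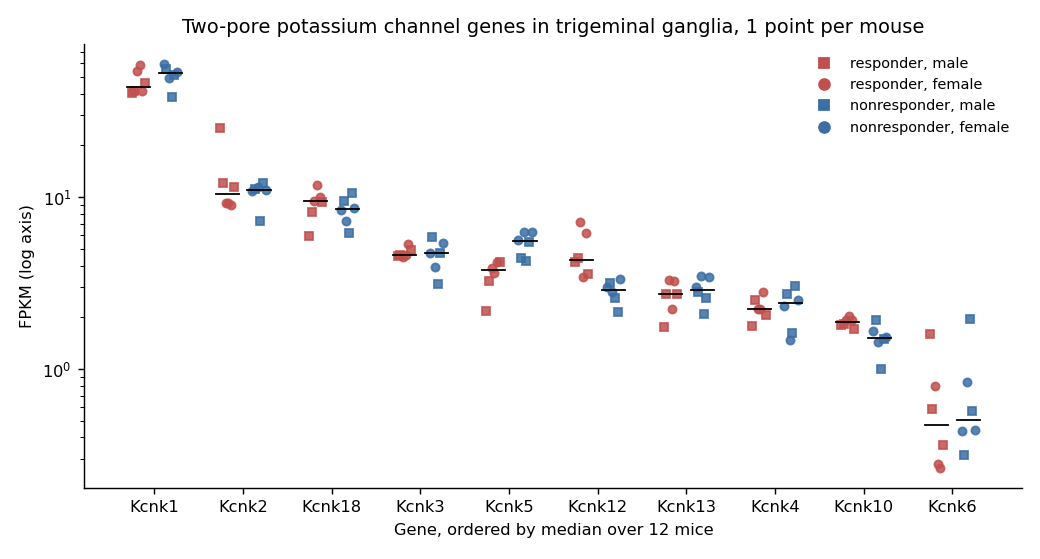
FPKM of each of the 10 genes (log axis) in each of the 12 mice, with genes ordered by their median. Red points are responders and blue points nonresponders, squares males and circles females, and the black lines are group medians. Kcnk1 lies above all other genes, the red points of Kcnk5 lie below the blue ones, those of Kcnk12 lie above, and 1 red point of Kcnk2 stands at 25.1 FPKM.

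Summed over the 14 genes of the family, responders had 91.1 ± 7.21 FPKM and nonresponders 91.1 ± 11.7 (SD, 6 mice each). Kcnk1 made up 51.5% ± 5.68 of that sum in responders and 56.2% ± 1.75 in nonresponders. Kcnk18 made up 10.1% ± 2.06 and 9.25% ± 1.07. The share of Kcnk2 was 26.6% in responder 1 and at most 14.6% in any other responder.

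**Figure D2:**
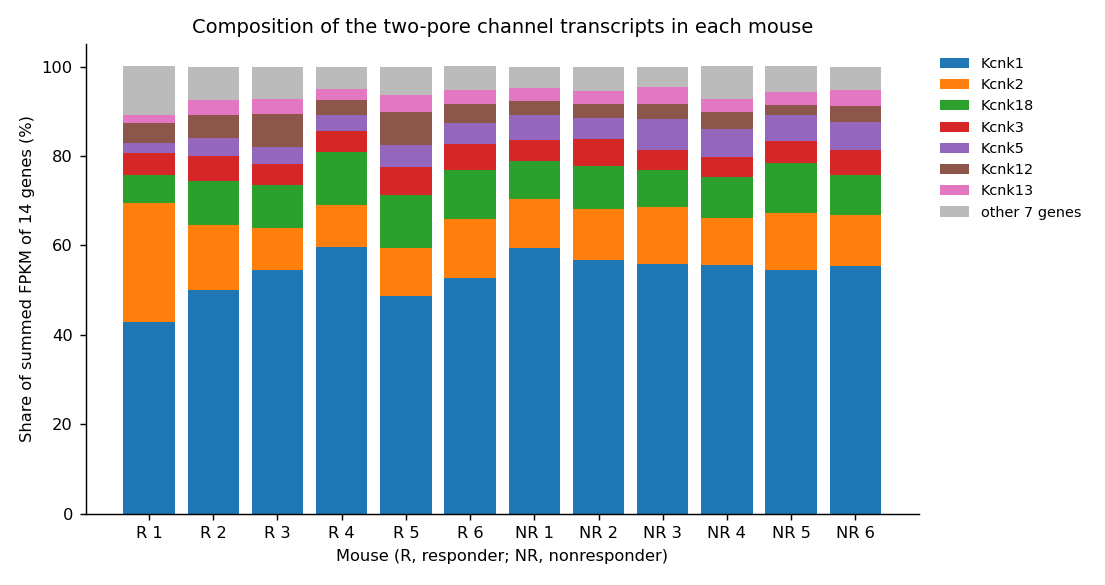
Share of the summed FPKM of the 14 family genes (percent, vertical axis) taken by each gene in each mouse (R, responder; NR, nonresponder). Kcnk1 takes the largest share in every mouse, from 42.9% in responder 1 to 59.6% in responder 4, and the share of Kcnk2 is widest in responder 1.

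Kcnk18 encodes TRESK, a leak channel that calcineurin activates when calcium rises. Its GRCm38 position is chromosome 19, bases 59219214 to 59237374 of the plus strand, and no other annotated gene overlaps it. In responders 1 to 6 it stood at 5.98, 8.17, 9.51, 11.8, 9.99 and 9.43 FPKM. In nonresponders 1 to 6 it stood at 8.47, 9.53, 7.31, 6.19, 10.6 and 8.60 FPKM. The groups overlapped over most of their range, and the lowest value of each belonged to the mice that stand apart. Means were 9.14 ± 1.94 FPKM for responders and 8.44 ± 1.55 for nonresponders (SD, 6 mice each). On the scale of log2(FPKM + 1), the difference of responders from nonresponders, called log2 fold change here, was 0.10 (SE 0.15, 95% interval -0.23 to 0.43), and limma gave an adjusted p of 0.894. With the sensory neuron score as a covariate the fold change was -0.09 (adjusted p = 0.748), and with the Schwann cell score, a choice made after seeing the data, it was 0.31 (adjusted p = 0.650). Leaving out 1 mouse at a time gave 0.03 (without responder 4 or nonresponder 4) to 0.19 (without responder 1).

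Kcnk18 was higher in female responders (10.4 ± 1.20 FPKM, n = 3) than in male responders (7.86 ± 1.75), and lay at 8.13 ± 0.711 in female and 8.76 ± 2.28 in male nonresponders. The response difference in females minus that in males was 0.45 on the log2 scale (SE 0.28), and the interaction was not past the test (limma adjusted p = 0.836).

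The TREK and TRAAK genes Kcnk2, Kcnk10 and Kcnk4 encode channels opened by membrane stretch, arachidonic acid and warmth. Kcnk2 (chromosome 1 from 189207930 to 189402273, minus strand) stood at 25.1, 12.1, 9.24, 9.27, 9.02 and 11.5 FPKM in responders 1 to 6. In nonresponders 1 to 6 it stood at 10.9, 11.1, 11.4, 7.25, 12.1 and 11.0. Responder 1 was the highest by a wide margin, and the remaining values of the groups overlapped. The log2 fold change was 0.16 (SE 0.22, limma adjusted p = 0.875), and without responder 1 it was -0.04 (adjusted p = 0.921). Female responders stood at 9.18 ± 0.134 FPKM and female nonresponders at 11.1 ± 0.291 (n = 3 each). The log2 fold change in females was -0.25 (SE 0.26, limma unadjusted p = 0.366, adjusted p = 0.898). Male responders stood at 16.2 ± 7.67 and male nonresponders at 10.2 ± 2.58 (n = 3 each). In males it was 0.56 (SE 0.26, limma unadjusted p = 0.0577, adjusted p = 0.700). The interaction with sex was -0.82 (SE 0.37, unadjusted p = 0.0536, limma adjusted p = 0.836) and took in responder 1, a male. That library also had the highest pituitary markers, with 63429 FPKM of Gh, the growth hormone gene, against 18.1 to 701 in nonresponders. The median of Gh over all responders was 874 FPKM and the lowest 78.3, so that Gh was not high in responder 1 alone. The part of the pituitary transcripts in the Kcnk2 value was not tested.

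Kcnk10, which encodes TREK-2 (chromosome 12 from 98429437 to 98578310, minus strand), stood at 1.80, 1.84, 1.92, 2.04, 1.92 and 1.70 FPKM in responders 1 to 6. It stood at 1.67, 1.93, 1.43, 0.996, 1.49 and 1.54 in nonresponders 1 to 6. Only nonresponder 2 reached into the range of the responders, and nonresponder 4 was the lowest. Its log2 fold change was 0.20 (SE 0.09, unadjusted p = 0.0458), which did not pass (limma adjusted p = 0.660), and it was 0.13 with the sensory neuron score as a covariate.

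Kcnk4, which encodes TRAAK, stood at 1.78, 2.52, 2.24, 2.25, 2.80 and 2.06 FPKM in responders 1 to 6. In nonresponders 1 to 6 it stood at 2.34, 2.73, 1.47, 1.62, 3.06 and 2.53. The responders lay inside the range of the nonresponders. Its log2 fold change was 0.01 (SE 0.14, 95% interval -0.29 to 0.31, limma adjusted p = 0.988).

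Kcnk5 encodes TASK-2, a leak channel opened by alkaline conditions outside the cell. It lies on chromosome 14 from 20140057 to 20181809, minus strand. It stood at 2.17, 3.27, 3.87, 3.64, 4.19 and 4.22 FPKM in responders 1 to 6. It stood at 5.65, 4.45, 6.29, 4.24, 5.48 and 6.25 in nonresponders 1 to 6. The groups did not overlap, but by a narrow margin, with the highest responder at 4.22 and the lowest nonresponder at 4.24. Means were 3.56 ± 0.767 FPKM for responders and 5.39 ± 0.874 for nonresponders (SD, 6 mice each), a log2 fold change of -0.50 (SE 0.12, 95% interval -0.75 to -0.24 without adjustment for the number of genes, unadjusted p = 0.00119). It did not pass over all genes (limma adjusted p = 0.339). The 2-sided exact permutation test, which takes all 924 ways of dividing the mice, gave p = 0.00216, the smallest it allows, and 0.394 after adjustment over all genes. Groups that do not overlap always give this smallest permutation p, so that it adds nothing to the lack of overlap.

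The difference in Kcnk5 had the same sign in both sexes, at -0.46 in males and -0.53 in females. Male responders stood at 3.22 ± 1.02 FPKM and male nonresponders at 4.72 ± 0.664, and female responders at 3.90 ± 0.281 and female nonresponders at 6.06 ± 0.358 (n = 3 each). Averaged by the first number of the descriptions, Kcnk5 ranged from 2.72 to 4.22 FPKM over the 4 numbers of responders and from 4.72 to 6.29 over the 3 of nonresponders.

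Markers of myelinating Schwann cells moved with Kcnk5. Of 10 markers, 9 had lower values in responders, and their sum lay between 2345 and 4533 FPKM in the responders, against 4311 to 6375 in the nonresponders. Of 9 markers of meningeal and nerve fibroblasts, 8 were tested and 7 had lower values, with sums of 268 to 529 and of 566 to 1626 FPKM. No marker of either list was listed at 0 in any mouse. Over all genes, 6995 of the 14203 tested had lower values in responders. So did 7 of 8 tested markers of endothelium, 6 of 8 of satellite glia and 5 of 6 of central nervous system cells. Lower values were also found for 7 of 7 skeletal muscle, 6 of 6 neutrophil and 4 of 9 macrophage markers. Of sensory neuron markers 2 of 15 were lower, and of pituitary markers 0 of 10. With the Schwann cell score as a covariate, a choice made after seeing the data, the log2 fold change of Kcnk5 was -0.23 (adjusted p = 0.640). In bulk tissue, fewer cells of a type and less RNA per cell cannot be told apart.

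Kcnk12 encodes THIK-2, a subunit held mostly inside the cell that gives little current on its own. It lies on chromosome 17 from 87745801 to 87797994, minus strand. It stood at 4.20, 4.43, 7.19, 3.44, 6.19 and 3.56 FPKM in responders 1 to 6. It stood at 3.00, 3.18, 2.79, 2.59, 2.14 and 3.34 in nonresponders 1 to 6. The groups did not overlap, with responder 4 at 3.44 just above nonresponder 6 at 3.34, and responders spread more widely than nonresponders. Means were 4.83 ± 1.52 FPKM for responders and 2.84 ± 0.434 for nonresponders (SD, 6 mice each), a log2 fold change of 0.57 (SE 0.14, 95% interval 0.26 to 0.89 without adjustment for the number of genes, unadjusted p = 0.00212). It did not pass over all genes (limma adjusted p = 0.430), and the exact permutation test gave p = 0.00216 and 0.394 after adjustment over all genes. Here too the unadjusted permutation p follows from the lack of overlap. The fold change was 0.48 in males and 0.66 in females, 0.54 with the sensory neuron score and 0.46 with the Schwann cell score as a covariate.

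Kcnk13, which encodes THIK-1, the main leak channel of microglia, stood at 1.75, 2.75, 3.29, 2.25, 3.26 and 2.75 FPKM in responders 1 to 6. It stood at 3.00, 2.79, 3.47, 2.08, 2.59 and 3.43 in nonresponders 1 to 6. The groups overlapped over most of their range. Its log2 fold change was -0.09 (SE 0.11, 95% interval -0.33 to 0.16, limma adjusted p = 0.863), and with 1 mouse left out at a time it ranged from -0.13 to -0.02 (without responder 4). It was -0.03 without responder 1. Kcnk12 and Kcnk13 thus had fold changes of opposite sign, and the difference between them was not tested.

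**Figure D3:**
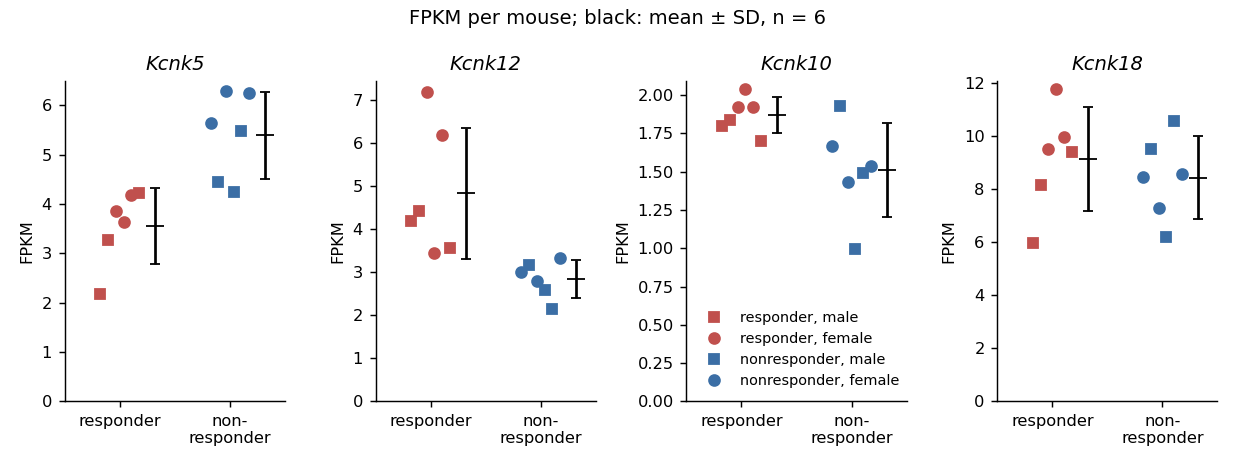
FPKM of Kcnk5, Kcnk12, Kcnk10 and Kcnk18 in each mouse (squares males, circles females), with the mean ± SD of each group in black (n = 6). Kcnk5 of responders ends at 4.22 and that of nonresponders starts at 4.24, Kcnk12 of nonresponders ends at 3.34 and that of responders starts at 3.44, and the groups overlap in the other panels.

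Kcnk1 and Kcnk6 encode the TWIK subunits, weakly rectifying channels of which TWIK-1 is found largely in endosomes. Kcnk1 (chromosome 8 from 125995170 to 126030685, plus strand) stood at 40.5, 41.5, 53.9, 59.1, 41.2 and 45.9 FPKM in responders 1 to 6. In nonresponders 1 to 6 it stood at 59.4, 55.4, 49.6, 38.1, 51.5 and 53.7. Nonresponder 4 was the lowest of all, and the groups overlapped. For Kcnk1 the log2 fold change was -0.13 (SE 0.12, 95% interval -0.38 to 0.13, limma adjusted p = 0.808), and with 1 mouse left out at a time it ranged from -0.19 (without nonresponder 4) to -0.06 (without responder 5). Kcnk6 was low: responders lay between 0.267 and 1.60 FPKM, nonresponders between 0.315 and 1.95. Only responder 1 and nonresponder 4 reached 1 FPKM, so that Kcnk6 failed the filter and has no limma test. The exact permutation test gave p = 0.699 for Kcnk6.

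Kcnk3 encodes TASK-1, which acid outside the cell closes. It stood at 4.55, 4.58, 4.48, 4.59, 5.31 and 4.94 FPKM in responders 1 to 6. It stood at 4.74, 5.87, 3.90, 3.14, 4.76 and 5.38 in nonresponders 1 to 6. The responders lay inside the range of the nonresponders. For Kcnk3 the log2 fold change was 0.05 (SE 0.12, 95% interval -0.22 to 0.31, limma adjusted p = 0.943).

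Of the 9 tested members, 0 passed limma over all genes, where 0.0211% of the 14203 tested genes did. At an unadjusted p under 0.05 there were 3, Kcnk5 lower and Kcnk10 and Kcnk12 higher in responders, where 7.40% of all tested genes were under it, 3.23% higher and 4.17% lower. Groups did not overlap for Kcnk5 and Kcnk12, 2 of 9, against 0.549% of all tested genes, 0.253% with responders above and 0.296% with responders below. The members were chosen with earlier results of these data known, so that these shares are a description and not a test of the family. Of the 9, 6 had a positive fold change and 3 a negative one, and their median was 0.05, against 0.00 over all tested genes. Each of the 9 reached 1 FPKM in at least 5 mice of each group, so that none passed the filter through 1 group alone.

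**Figure D4:**
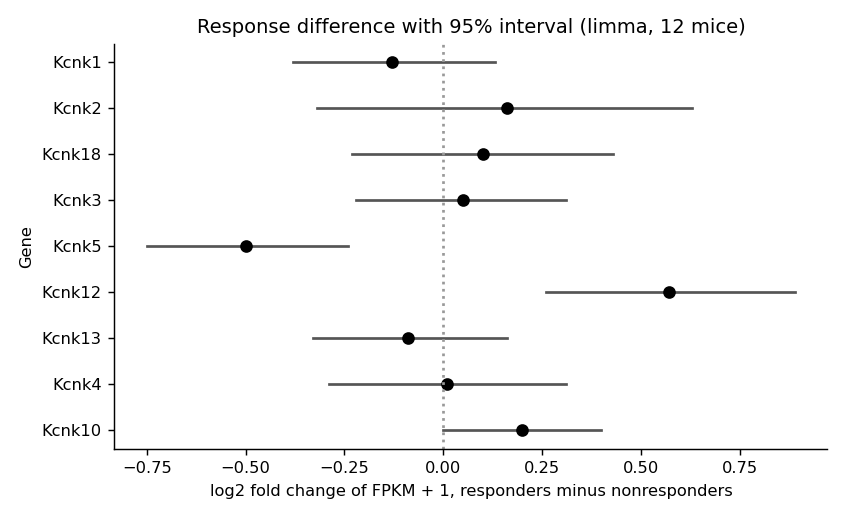
Log2 fold change of FPKM + 1, responders minus nonresponders (horizontal axis), for the 9 tested genes, with 95% intervals from limma over 12 mice that are not adjusted for the number of genes. The intervals of Kcnk5 (-0.75 to -0.24) and Kcnk12 (0.26 to 0.89) lie to opposite sides of 0. That of Kcnk10 starts just above 0, and the other 6 include 0.

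Between the sexes, 0 of the 9 genes passed, where 0.0563% of all tested genes did. Kcnk5 stood at 4.98 ± 1.22 FPKM in females and 3.97 ± 1.13 in males (n = 6 each, log2 difference 0.28, unadjusted p = 0.0352, limma adjusted p = 0.864). Kcnk13 stood at 3.11 ± 0.456 and 2.45 ± 0.433 (0.26, unadjusted p = 0.0411, adjusted p = 0.864). These were 2 of 9 genes at an unadjusted p under 0.05, both higher in females, where 4.53% of all tested genes were under it and 2.01% were higher in females. The interaction of response and sex was called by limma for 0 of the 9 genes and for 0% of all tested genes. It had an unadjusted p under 0.05 for 0 members and for 5.01% of all genes.

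The members followed different cell markers from mouse to mouse. Each of the 10 was set against the mean log2(FPKM + 1) of 4 marker lists (sensory neurons, myelinating Schwann cells, fibroblasts, pituitary) over the 12 mice, with p-values from 100000 permutations and adjusted over the 40 relations. The permutations took the 12 mice together without regard to group. A difference between the groups in both a gene and a score can therefore add to r and lower its p. Of the 40 relations, 9 passed by Pearson's r, 6 by Spearman's rho and 6 by both. Kcnk18 rose with the sensory neuron score, at r = 0.88 (permutation p = 0.000260, adjusted 0.00347) and rho = 0.84 (permutation p = 0.00118, adjusted 0.0124). Without responder 1 and nonresponder 4, the mice farthest from the median score, r was 0.73, and it was 0.86 within responders and 0.94 within nonresponders. Kcnk10 did likewise, at r = 0.77 (permutation p = 0.00291, adjusted 0.0194) and rho = 0.83 (permutation p = 0.00124, adjusted 0.0124), with 0.83 without those mice and 0.61 and 0.92 within the groups. Kcnk6 ran the other way, at r = -0.86 (permutation p = 0.000430, adjusted 0.00430) and rho = -0.78 (permutation p = 0.00376, adjusted 0.0257), with -0.60 without those mice and -0.86 and -0.93 within the groups. Kcnk6 had failed the filter on low values, with a median of 0.505 FPKM. A stretch of it matched 306 genes, so that its relation is less certain than those of Kcnk18 and Kcnk10.

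Kcnk5 followed the Schwann cell score, at r = 0.93 (permutation p = 1e-05, the smallest that the permutations can give, adjusted 0.000400) and rho = 0.84 (permutation p = 0.00111, adjusted 0.0124). Without responder 1 and nonresponder 6 r was 0.83, and within responders and nonresponders it was 0.94 and 0.85. Kcnk5 had r = 0.75 with the fibroblast score (permutation p = 0.00401, adjusted 0.0229) and rho = 0.78 (permutation p = 0.00386, adjusted 0.0257). Without nonresponders 3 and 4 r was 0.82, and within responders and nonresponders it was 0.67 and 0.29. Kcnk5 and the summed fibroblast markers were both lower in responders, so that r over all mice takes in that difference. With the sensory neuron score Kcnk5 had r = 0.03 (permutation p = 0.915, adjusted 0.938) and rho = -0.31 (permutation p = 0.331, adjusted 0.601). Without responder 1 and nonresponder 4 that r was -0.70, so that it rests on those mice, and it was 0.81 and 0.14 within the groups.

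Kcnk5 also passed by Pearson's r with the pituitary score, at -0.75 (permutation p = 0.00610, adjusted 0.0305), but not by rho, at -0.61 (permutation p = 0.0397, adjusted 0.159). Without responders 1 and 2 that r was -0.16, so that it rests on those mice. It was -0.89 within responders and 0.56 within nonresponders. Kcnk4 and Kcnk3 passed with the sensory neuron score by r alone, at 0.79 (permutation p = 0.00244, adjusted 0.0194) and 0.71 (permutation p = 0.00868, adjusted 0.0386), with rho of 0.63 (permutation p = 0.0325, adjusted 0.145) and 0.49 (permutation p = 0.108, adjusted 0.309). Without responder 1 and nonresponder 4 r was 0.66 for Kcnk4 and 0.50 for Kcnk3. Within responders and nonresponders it was 0.90 and 0.88 for Kcnk4, and 0.47 and 0.94 for Kcnk3.

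Kcnk10 fell as the fibroblast score rose, at r = -0.83 (permutation p = 0.000170, adjusted 0.00340) and rho = -0.87 (permutation p = 0.000330, adjusted 0.0124). Without nonresponders 3 and 4 r was -0.86, and within responders and nonresponders it was -0.50 and -0.76. Kcnk12 passed with none of the 4 lists, its largest r being -0.64 with the fibroblast score (permutation p = 0.0227, adjusted 0.0855; rho = -0.71, permutation p = 0.0131, adjusted 0.0750). Without nonresponders 3 and 4 that r was -0.57, and it was 0.16 and -0.66 within responders and nonresponders. Kcnk2 had r = 0.75 with the pituitary score (permutation p = 0.0235, adjusted 0.0855) and rho = 0.41 (permutation p = 0.190, adjusted 0.422). Without responders 1 and 2 r was -0.07, so that the relation rests on those mice, and it was 0.88 and 0.24 within responders and nonresponders.

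**Figure D5:**
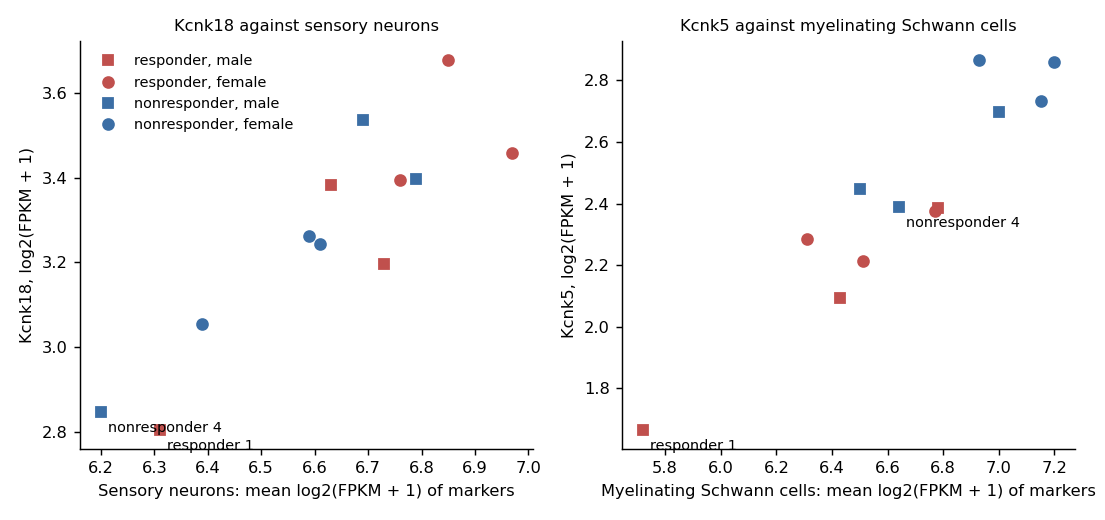
Log2(FPKM + 1) of Kcnk18 against the mean log2(FPKM + 1) of the sensory neuron markers (left) and of Kcnk5 against that of the myelinating Schwann cell markers (right), 1 point per mouse. Both rise from left to right within red (responder) and blue (nonresponder) points. Responder 1 and nonresponder 4 lie lowest in the left panel, and responder 1 in the right.

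The genes whose pattern over the 12 mice was most like that of Kcnk18, by Pearson's r of log2(FPKM + 1) among 12169 tested protein-coding genes, were Pakap (0.96), Snx11 (0.95), Jun (0.95), Actr1b (0.95) and Apbb3 (0.94). For Kcnk1 they were Mtx3 (0.91), Cpn1 (0.88), Nap1l3 (0.88), Dnajc15 (0.87) and Cyp2u1 (0.86). For Kcnk3 they were Rprm (0.93), Selenom (0.92), Rps6kl1 (0.90), Miga2 (0.90) and C1qtnf1 (0.90). For Kcnk2 they were Pde3b (0.97), Dync2li1 (0.96), Zfp324 (0.96), Ankrd37 (0.96) and Bbs2 (0.95), with Spearman's rho lower than r for each, from 0.71 to 0.86. These are descriptions, since the genes were picked for their r and were measured in the same 12 libraries as the member.

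The other 4 genes of the family did not pass the filter. Kcnk7 reached at most 0.0735 FPKM, Kcnk15 at most 0.834 and Kcnk16 at most 0.0436. Kcnk9, which encodes TASK-3, had 4.94, 0.969 and 1.26 FPKM in the first 3 responders, while the other 9 mice lay between 0.201 and 0.396. Responders 1 to 3 were also the mice with the highest summed pituitary markers, 77971, 6860 and 3713 FPKM, and the part of those transcripts in the Kcnk9 values was not tested.

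Genes of known partners and regulators of these channels showed no call. Of 37 listed, 35 were tested and 0 passed limma over all genes, 22 with higher and 13 with lower values in responders and a median of 0.03. Of all 14203 tested genes, 0.0211% passed, 7208 had higher and 6995 lower values, and the median was 0.00. At an unadjusted p under 0.05 there was 1 of the 35 in each direction. Of all tested genes, 3.23% were under it with higher and 4.17% with lower values. Map2, a microtubule-associated protein that binds TREK channels, had a mean of 31.9 ± 3.43 FPKM in responders against 25.4 ± 5.55 (SD, 6 mice each, limma adjusted p = 0.640). Bves, a Popeye domain protein that binds cyclic AMP and TREK-1, stood at 1.40 ± 0.270 and 1.85 ± 0.322 (adjusted p = 0.641). Psd, an exchange factor for Arf6, stood at 8.66 ± 5.29 and 5.31 ± 1.11 (adjusted p = 0.680), and Mark2, a microtubule affinity regulating kinase, at 10.7 ± 1.61 and 9.21 ± 1.66 (adjusted p = 0.732).

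Of the genes of calcineurin, the phosphatase that activates TRESK, 4 were tested and 0 passed, 2 with higher and 2 with lower values. Ppp3r1, its regulatory subunit, had 92.4 ± 9.10 FPKM in responders against 91.1 ± 6.95, and the catalytic subunit gene Ppp3cb at 36.1 ± 10.3 and 40.6 ± 9.32 (n = 6 per group, limma adjusted p = 0.971 and 0.829). The 7 genes of 14-3-3 proteins, which hold TRESK in its inactive state, had 0 calls and a median of 0.02. The sodium leak channel complex, which carries a depolarizing leak current, had 0 calls. Values were higher in responders for 4 of its 4 tested genes, and for 7208 of all 14203. The median of the 4 was 0.37, against 0.00 over all tested genes. Among them Nalcn, the channel itself, stood at 9.75 ± 3.71 and 7.83 ± 1.35 FPKM (adjusted p = 0.777). Fam155a stood at 8.85 ± 3.47 and 5.86 ± 1.18 (unadjusted p = 0.0367, adjusted p = 0.640), Unc79 at 1.80 ± 1.94 and 0.774 ± 0.317 (adjusted p = 0.741) and Unc80 at 3.69 ± 1.46 and 3.08 ± 1.72 (adjusted p = 0.859). The highest responder reached 17.1 FPKM for Nalcn, 15.5 for Fam155a and 5.69 for Unc79, well above the responder means. How far the fold changes rest on these high values was not tested.

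PACAP acts through cyclic AMP in many cells, so the promoters were searched for the cyclic AMP response element. RefSeq start sites of GRCm38.p6 matched 8 of the 10 genes (not Kcnk3 and Kcnk6), with 12 windows of 250 bases before the start. The Kcnk18 window, bases 59219398 to 59219647 of chromosome 19, lay inside the GENCODE span of the gene, which starts at 59219214. The sequence before that GENCODE start was therefore not searched. Windows of Kcnk2, Kcnk5 and Kcnk10 also lay inside or overlapped the spans of their genes. The full element TGACGTCA, which reads the same on both strands, its half-site TGACG, which it contains, and TATAAA, both strands searched, were found in 0 of the 12 windows. Of all 32851 such windows, 1.55%, 17.8% and 12.4% held them. The windows of Kcnk5 and Kcnk12 held 19 and 16 CpG dinucleotides and that of Kcnk18 held 5, where the median of all windows was 6. Those of Kcnk2 held 5, 2, 27 and 28, and those of Kcnk10 held 4 and 16. The windows of Kcnk13, Kcnk4 and Kcnk1 held 8, 3 and 0.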

How the data were processed

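The deposited table has a row for each Ensembl gene and a column for each mouse. Its header names no unit, and the deposited values were taken as FPKM, since their totals differ between mice. The submitters' processing notes name StringTie 1.3.5, STAR 2.6.0a, GRCm38 and mm10, and no source used here gives the annotation, settings or filters. Groups came from the sample titles and sex from the characteristics. Whether the mice are separate litters is not stated, so that p-values measure the spread between these mice. Symbols came from GENCODE M21 (GRCm38), which held 51024 of the 51341 identifiers. No 2 columns were identical (0 pairs).

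Log2(FPKM + 1) was tested with limma 3.58.1 in R 4.3.3 (eBayes, 9 residual and 2.23 prior degrees of freedom) over the 14203 genes that reached 1 FPKM in 3 or more mice, with sex as a covariate. Within-sex differences and the interaction came from 4 cell means. P-values are 2-sided and were adjusted by Benjamini-Hochberg across every tested gene, with a threshold of 0.05. The pseudocount understates the change of low genes. The fit was tested on simulated data. Python 3.11.15 with scipy 1.17.1 was used for permutation tests and blastn 2.17.0 for matching transcripts. Alternatives changed the pseudocount, filter, scaling, weights, covariates and mice used.

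The members, lists and tests were chosen with earlier results of these data known. The text names every member, up to 4 genes of each list with the smallest p, and the 5 genes most like Kcnk18 and each of the 3 other members with the highest median, clones and predicted models left out; for these only protein-coding genes were used. Ppp3r1, Ppp3cb and Gh are named outside that rule, after their values were seen. The design had allowed for counts, and its FPKM branch was used.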

Additional observations from a re-analysis of the deposited data

Results flagged for a closer look

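In 3 of 20 groups of 6 mice, 1 mouse lay far from the rest by Dixon's criterion (the gap to the nearest mouse over the range of the group), which flags about 1 in 20 groups by chance. Kcnk2 stood at 25.1 FPKM in responder 1, where the other responders ranged from 9.02 to 12.1, and at 7.25 in nonresponder 4, where the other nonresponders ranged from 10.9 to 12.1. Kcnk6 stood at 1.95 FPKM in nonresponder 4, where the other nonresponders ranged from 0.315 to 0.843. Nonresponder 4 also had the highest summed neutrophil markers, 3804 FPKM.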

How the results depend on the processing

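No two-pore channel gene was called under any of the 27 settings run for the response (smallest adjusted p 0.101, Kcnk5 with array weights), or the 25 run for sex (0.499) and the interaction (0.600). Leaving out responder 1 and nonresponder 4 together and the Schwann cell covariate were chosen after seeing the data. Array weights reversed Kcnk2 (-0.07), Kcnk3 (-0.02) and Kcnk4 (-0.02). The sensory neuron score as covariate reversed Kcnk3 (-0.07), Kcnk4 (-0.16) and Kcnk18 (-0.09), and the Schwann cell score Kcnk2 (-0.09) and Kcnk13 (0.06). Without responder 1 and nonresponder 4 together Kcnk2 was -0.14, Kcnk3 -0.03 and Kcnk4 -0.01. Leaving out 1 mouse at a time gave -0.04 to 0.21 for Kcnk2, -0.05 (without nonresponder 4) to 0.12 for Kcnk3, and -0.08 to 0.08 for Kcnk4. The latter was -0.01 without responder 2, -0.04 without responder 5, -0.08 without nonresponder 3 and -0.06 without nonresponder 4. Over all alternatives Kcnk5 ranged from -0.60 to -0.23, Kcnk12 from 0.46 to 0.71, Kcnk10 from 0.13 to 0.31, Kcnk1 from -0.20 to -0.06, Kcnk13 from -0.16 to 0.06 and Kcnk18 from -0.09 to 0.31. The cause was not tested.

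Among all tested genes, 3 were called, 1 with the mice averaged by description number, and 2 to 6 with 1 mouse left out (5 without responder 2, 6 without responder 5, 6 without responder 6). With the replicate block the count was 1 and no member was called. The block is the replicate number in the titles, which pairs a responder with a nonresponder. The deviations of such mice correlated from -0.273 to 0.133 over 6 pairs, and 0 of 12 mice were closest to their own replicate number. Mice that share a description number were not compared in this way. The depth in reads is unknown, which limits what can be said of genes near 1 FPKM.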
